A study of Homo sapiens with 48 samples.

Results

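The cholesterol and fatty acid synthesis genes described here were 32 genes of the sterol pathway, of its regulators and of lipogenesis under the sterol regulatory element-binding proteins (SREBPs). They were matched by gene name to the table of expected read counts. All 32 were found among its 57820 genes, and all 32 were among the 19129 genes that passed a filter on low counts. They comprised 17 sterol synthesis enzymes, of which 7 act in the mevalonate steps and 10 from squalene onward, 6 regulators counted together with the sterol carrier STARD4, and 9 genes of the fatty acid branch.

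RNA was sequenced from 48 libraries of Flp-In 293 T-REx cells, a human embryonic kidney (HEK293) derivative that carries a transgene at a fixed genomic site. The 8 stable lines expressed the CLIP tag alone (CLIP), CLIP-tagged wild-type UPF1 (WT), or CLIP-UPF1 with the change K498A, DE636AA, R843C, A546H, GA-KH or E797R. UPF1 is the helicase at the centre of nonsense-mediated mRNA decay, and K498A and DE636AA alter its ATP-binding and ATP-hydrolysis motifs. Each line was treated for 72 h with 40 nM of siNT, which has no target, or of siUPF1, directed at endogenous UPF1, in 3 biological replicates per group, which makes 16 groups. All lines keep their own UPF1 gene, so the siNT cells of the 7 transgene lines hold endogenous and tagged UPF1 together, and whether a line is 1 clone or a pool was not given in the sources used here. The comparisons asked how the transcripts of the 32 genes changed with siUPF1 against siNT, and how that change depended on which form of CLIP-UPF1 the cells carried.

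Cholesterol is built from acetyl-CoA through mevalonate, isoprenoid diphosphates, squalene and a series of sterol intermediates, while the fatty acid branch turns the same acetyl-CoA into saturated, monounsaturated and polyunsaturated fatty acids. The SREBP transcription factors are made as membrane precursors in the endoplasmic reticulum. SCAP escorts them to the Golgi for cleavage when sterols are low, and INSIG proteins hold SCAP back when sterols are high. SREBP-2 (gene SREBF2) is known mainly as an activator of sterol genes and SREBP-1 (gene SREBF1) of fatty acid genes, and INSIG1 is itself a classic SREBP target.

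The SREBPs are known to bind a sterol regulatory element and, in vitro, an E-box, and the promoters of members that hold either are shown so that the letters stand beside the responses given below. RefSeq promoters of 300 bases around the transcription start (GRCh38.p14) were at hand for 28 of the 32 members. Those of ACAT2, FDFT1, SQLE and FASN were missing. The sterol element, searched as TCACNCCAC on both strands, was found in 1 of the 28 (3.57%), SREBF2, against 1.13% of 35116 promoters of the same length. The E-box CACGTG was found in 3 of the 28 (10.7%), SCAP, INSIG1 and LSS, against 7.26%. The SREBF2 promoter is shown for its sterol element and its call in the mean response, and the other 3 were chosen after their values were seen. Each sequence is printed 5′ to 3′ on the gene's strand, with the motif in capitals.

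SREBF2 (chr22:41832855-41833154, plus strand): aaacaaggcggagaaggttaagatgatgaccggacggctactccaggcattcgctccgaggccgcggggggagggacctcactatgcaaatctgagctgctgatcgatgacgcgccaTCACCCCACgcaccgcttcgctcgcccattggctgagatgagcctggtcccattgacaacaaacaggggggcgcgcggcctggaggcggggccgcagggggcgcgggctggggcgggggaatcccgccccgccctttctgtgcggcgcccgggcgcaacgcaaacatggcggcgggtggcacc
SCAP (chr3:47475892-47476191, minus strand): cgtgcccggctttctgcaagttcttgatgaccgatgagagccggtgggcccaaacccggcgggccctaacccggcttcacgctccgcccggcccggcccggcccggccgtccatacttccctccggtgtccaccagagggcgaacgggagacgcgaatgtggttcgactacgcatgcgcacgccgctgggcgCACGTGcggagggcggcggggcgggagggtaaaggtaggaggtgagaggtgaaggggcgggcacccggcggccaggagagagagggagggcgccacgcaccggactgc
INSIG1 (chr7:155297628-155297927, plus strand): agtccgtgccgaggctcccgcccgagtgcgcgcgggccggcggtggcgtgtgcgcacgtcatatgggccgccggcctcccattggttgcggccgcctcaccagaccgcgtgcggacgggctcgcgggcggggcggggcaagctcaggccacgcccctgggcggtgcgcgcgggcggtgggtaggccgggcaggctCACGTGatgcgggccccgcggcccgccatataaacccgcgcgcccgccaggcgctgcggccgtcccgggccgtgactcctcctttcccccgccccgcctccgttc
LSS (chr21:46228725-46229024, minus strand): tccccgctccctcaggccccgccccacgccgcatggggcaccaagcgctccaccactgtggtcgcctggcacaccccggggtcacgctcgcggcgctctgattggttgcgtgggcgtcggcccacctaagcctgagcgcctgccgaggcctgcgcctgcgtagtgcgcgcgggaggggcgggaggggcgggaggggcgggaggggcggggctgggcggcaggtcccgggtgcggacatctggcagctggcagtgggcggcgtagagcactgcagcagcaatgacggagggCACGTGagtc

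The sterol element of SREBF2 began 133 bases before the start. The E-boxes of SCAP and INSIG1 lay 58 and 55 bases before it, and that of LSS 41 bases after it. The CCAAT box (CCAAT, either strand) was found in 17 of the 28 promoters (60.7%) against 34.6%, and the GC box (GGGCGG, either strand) in 27 (96.4%) against 45% of all promoters. The background was all promoters of that length at hand and was not limited to genes tested here, whereas all members passed the count filter. The shares are thus not of like sets. These are matches of letters in these windows and no measure of binding. Elements with other letters or outside the windows were not searched, so a promoter without a match may still hold one.

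Each library held between 21.3 and 47.1 M expected counts, with a median of 32.3 M. Levels are given as CPM, counts per 1e6 of the normalised library total. CPM is not scaled to gene length, so levels are compared within a gene only. UPF1, the siRNA target, fell in CLIP from 108 ± 4.14 CPM (SD, n = 3) to 24.2 ± 10.9 CPM, which left 22.4% (log2 fold change -2.17, SE 0.17, adjusted p = 4.83e-13). In the 7 transgene lines UPF1 group means were 3958 to 7218 CPM and none of the 7 changes was called (adjusted p from 0.0786 to 0.958). Loss of the endogenous transcript cannot be seen beneath the transgene. All 7 HEK293 background markers were detected in every library, from 0.842 to 2.75 CPM for NEFM up to 430 to 807 CPM for VIM. Markers of other cell types summed to 90.4 to 106 CPM with siNT and 76.9 to 113 with siUPF1, mostly EPCAM (64.8 to 100.2), with PTPRC, CD3E, COL1A2, CDH5, ADIPOQ and FABP4 at a median of 0. CLIP siUPF1 replicate 2 stood apart from all others, with 0.631% of its counts from mitochondrially encoded genes against 1.53% to 2.92% in the other 47 libraries. CLIP values of members below that lose their call, turn sign or move by over 1.5 times without it are given both ways. For the further pathway genes the CLIP values include this library and are not given without it. All libraries were fitted in the same model, so this library also enters the SEs of the other lines. Responses of the other lines were not refitted with it alone left out. The part that the RNA quality of CLIP siUPF1 replicate 2 plays in any of these values was not tested. Replicate 3 of the WT and E797R siUPF1 groups also lay further from the other libraries of its group than those did from each other. In bulk RNA, fewer expressing cells and less RNA per cell cannot be told apart.

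The siRNA against UPF1 was followed by changes of the members in both directions. The regulators SREBF1 and SCAP rose in every line, whereas the mevalonate-pathway kinase PMVK and the desaturase FADS1 fell in every line. INSIG1 and ACLY fell in 7 of the 8 lines. The consecutive enzymes IDI1, FDPS, FDFT1 and SQLE fell in the same 5 lines and were not called in WT, GA-KH and E797R. The response of a line is the log2 fold change of siUPF1 against siNT, and a gene was called at an adjusted p under 0.05 (edgeR quasi-likelihood test, Benjamini-Hochberg adjustment over all genes tested). Over the 256 tests of members, 61 were called higher (23.8%) and 74 lower (28.9%), against 17.2% and 15.8% of the same tests over all genes. At least 1 line had a call for 30 of the 32 members (93.8%) and for 69.1% of all genes, and INSIG2 and ELOVL6 were called in none.

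In CLIP, 23 of the 32 members were called, 10 higher and 13 lower, a share of 71.9% against 47.4% of all genes tested (25.1% higher and 22.3% lower). In WT 16 were called, 12 higher and 4 lower, against 27.2% of all genes (14% and 13.3%). In K498A 17 were called, 3 higher and 14 lower, against 32.7% (16.2% and 16.5%). In DE636AA 19 were called, 3 higher and 16 lower, against 34.3% (16.7% and 17.6%). These ATP-site forms had the most members lower and the fewest higher. In R843C 17 were called, 6 higher and 11 lower, against 32.5% (17.7% and 14.8%). In A546H 17 were called, 8 higher and 9 lower, against 32.2% (17.2% and 15%). In GA-KH 12 were called, 7 higher and 5 lower, against 28.3% (14.5% and 13.8%). In E797R 14 were called, 12 higher and 2 lower, against 29.5% (16% and 13.5%). Without CLIP siUPF1 replicate 2, 8 members were called higher and 12 lower in CLIP, where 40.5% of all genes were called. In a fit to the CLIP libraries alone 12 members were called, and the share of all genes was not taken there.

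In the mean response over the 8 lines 23 members were called, 10 higher and 13 lower, or 71.9% against 69.2% of all genes tested (35.1% higher and 34.1% lower), a share near the background. A test of whether the response differed among the 8 lines called 20 of the 32 members (62.5%) against 15.1% of all genes. By group these were 12 of the 17 sterol enzymes, 2 of the 6 regulators and 6 of the 9 fatty acid genes. The heatmap of responses shows both features, the rows of 1 colour and the rows that change colour between lines.

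**Figure D1:**
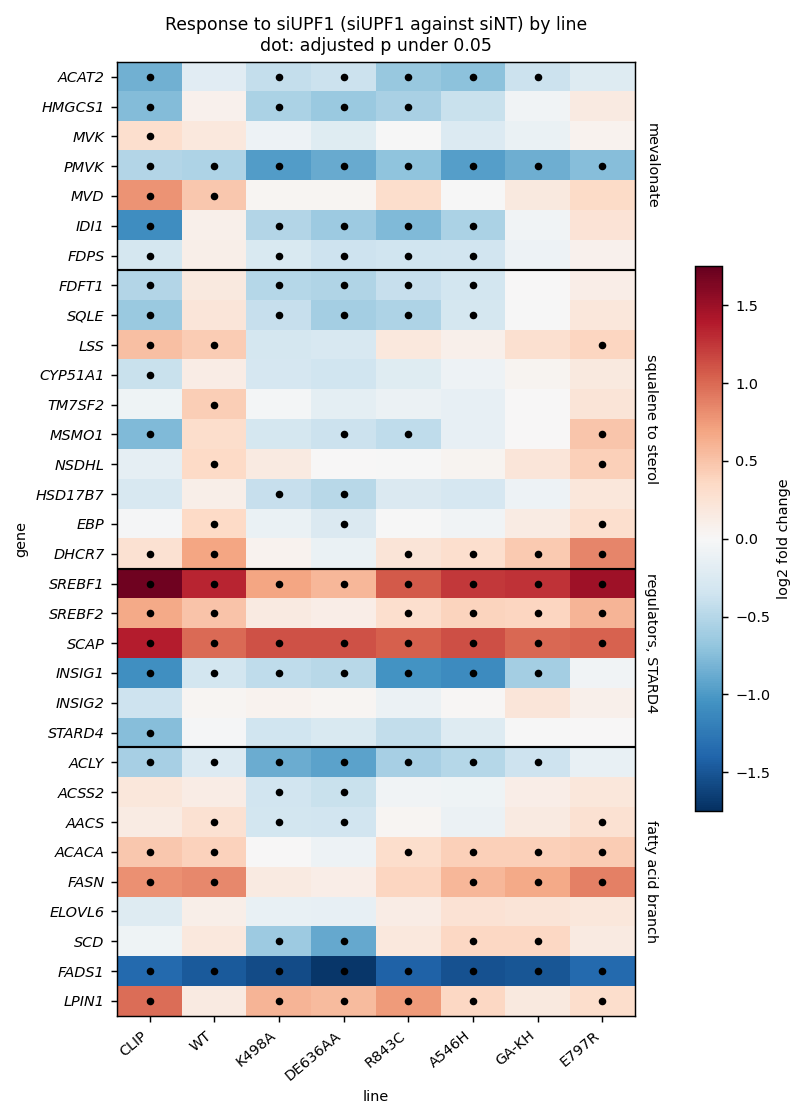
Response of each member (rows, grouped by function) to siUPF1 in each line (columns), as log2 fold change of siUPF1 against siNT from 3 libraries per group, with a dot where the adjusted p was under 0.05. SREBF1 and SCAP are red and PMVK and FADS1 blue in all 8 lines, and the trunk from IDI1 to SQLE is blue with dots in CLIP, K498A, DE636AA, R843C and A546H only.

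Among the regulators, the SREBP-1 gene SREBF1 (ENSG00000072310.12) rose in all 8 lines. With siNT its level was 19.1 CPM at the lowest, 25.9 at the median and 32.8 at the highest of 24 libraries. With siUPF1 the 3 libraries were at 56.3, 106 and 59.7 CPM in CLIP, 64.1, 65.6 and 75.1 in WT, 47.4, 46.3 and 45.8 in K498A, and 46.2, 41.7 and 45.6 in DE636AA. They were at 56.3, 59 and 58.9 CPM in R843C, 56.7, 64.6 and 64.2 in A546H, 56.1, 54.6 and 62.8 in GA-KH, and 66, 63.8 and 84.2 in E797R. Every siUPF1 library lay above every siNT library of any line, and the ATP-site forms K498A and DE636AA had the lowest siUPF1 levels. The rise was 1.71 (SE 0.15) in CLIP and 1.33 (0.15) in WT, against 0.70 (0.15, adjusted p = 0.000312) in K498A and 0.58 (0.15, adjusted p = 0.00218) in DE636AA, and 1.08 to 1.48 in the other 4 lines. The response differed among lines (adjusted p = 0.000945), and the DE636AA response was lower than that of WT by a difference of -0.75 (SE 0.21, adjusted p = 0.0306). With siNT, SREBF1 in WT and DE636AA was above CLIP by 0.26 and 0.39 on the log2 scale, without a call. Without CLIP siUPF1 replicate 2 the rise in CLIP was 1.35. Averaged over the lines the SREBF1 transcript was 2.25-fold higher (mean response 1.17, SE 0.05, adjusted p = 1.36e-21).

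SCAP (ENSG00000114650.14), the escort of the SREBPs, also rose in all 8 lines. Its siNT level was 31.1, 33.6 and 41.6 CPM at the lowest, median and highest of 24 libraries. The siUPF1 libraries were at 63.9, 109 and 77.1 CPM in CLIP, 62.3, 63.7 and 80 in WT, 76.2, 72.7 and 84.2 in K498A, and 71.1, 73 and 90.8 in DE636AA. The libraries of R843C held 64.9, 70.5 and 72.4 CPM, those of A546H 68, 77.5 and 80.7, those of GA-KH 65, 62.2 and 69.3, and those of E797R 64.8, 66.1 and 84. Again no siUPF1 library overlapped any siNT library. The response was 1.38 (SE 0.13) in CLIP, or 1.13 without its siUPF1 replicate 2, and 1.00 to 1.13 in the other 7 lines. A difference among lines was not called for SCAP. The mean response was 1.10 (SE 0.05, adjusted p = 1.5e-22), a 2.15-fold level.

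SREBF2 (ENSG00000198911.7), the gene of SREBP-2 and the member with the sterol element shown above, rose in 6 lines. Its siNT level ran from 111 to 152 CPM (median 131) and the response from 0.12 in DE636AA to 0.66 in CLIP. K498A (0.16, SE 0.11, adjusted p = 0.278) and DE636AA (0.12, SE 0.11, adjusted p = 0.412) were the lines without a call. It was called higher in the mean response (0.39, SE 0.04).

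INSIG1 (ENSG00000186480.8), which retains SCAP in the endoplasmic reticulum, fell in 7 lines by amounts that differed among lines. With siNT it was at 140, 167 and 229 CPM at the lowest, median and highest library. After siUPF1 it was at 82.3, 67.5 and 84 CPM in CLIP, 87.6, 81.1 and 74.9 in R843C, and 66.9, 74.5 and 71.8 in A546H. These were 3 lines with a response of -1.07, -1.05 and -1.10 (SE 0.09 each). It was at 93.4, 111 and 99.1 CPM in GA-KH, 138, 139 and 152 in DE636AA, 161, 152 and 153 in K498A, and 148, 139 and 146 in WT. In these 4 lines the siUPF1 libraries were still all below their own siNT libraries, and the responses were -0.59, -0.48, -0.44 and -0.32 (SE 0.09 each). In E797R the siUPF1 libraries at 136, 133 and 146 CPM overlapped the siNT libraries at 144, 141 and 149 (response -0.07, SE 0.09, adjusted p = 0.623). All K498A siUPF1 libraries lay above every E797R library of either siRNA, so K498A fell from a higher siNT level. Against CLIP with siNT, INSIG1 had an unadjusted p under 0.05 in K498A and DE636AA (edgeR quasi-likelihood test), without a call. The response differed among lines (adjusted p = 2.22e-08).

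Of the remaining regulators, STARD4, which carries sterols between membranes, was called in CLIP alone (-0.74, or -0.39 without siUPF1 replicate 2). It ranged up to 0.01 in E797R. In K498A, DE636AA and R843C (-0.35, -0.27 and -0.43) its siUPF1 libraries also all lay below the line's siNT libraries, without a call. Its call was lower in the mean response (-0.26, SE 0.07, adjusted p = 0.000843). INSIG2, the second INSIG protein, was called nowhere and ranged from -0.37 in CLIP (-0.07 without siUPF1 replicate 2) to 0.21 in GA-KH.

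**Figure D2:**
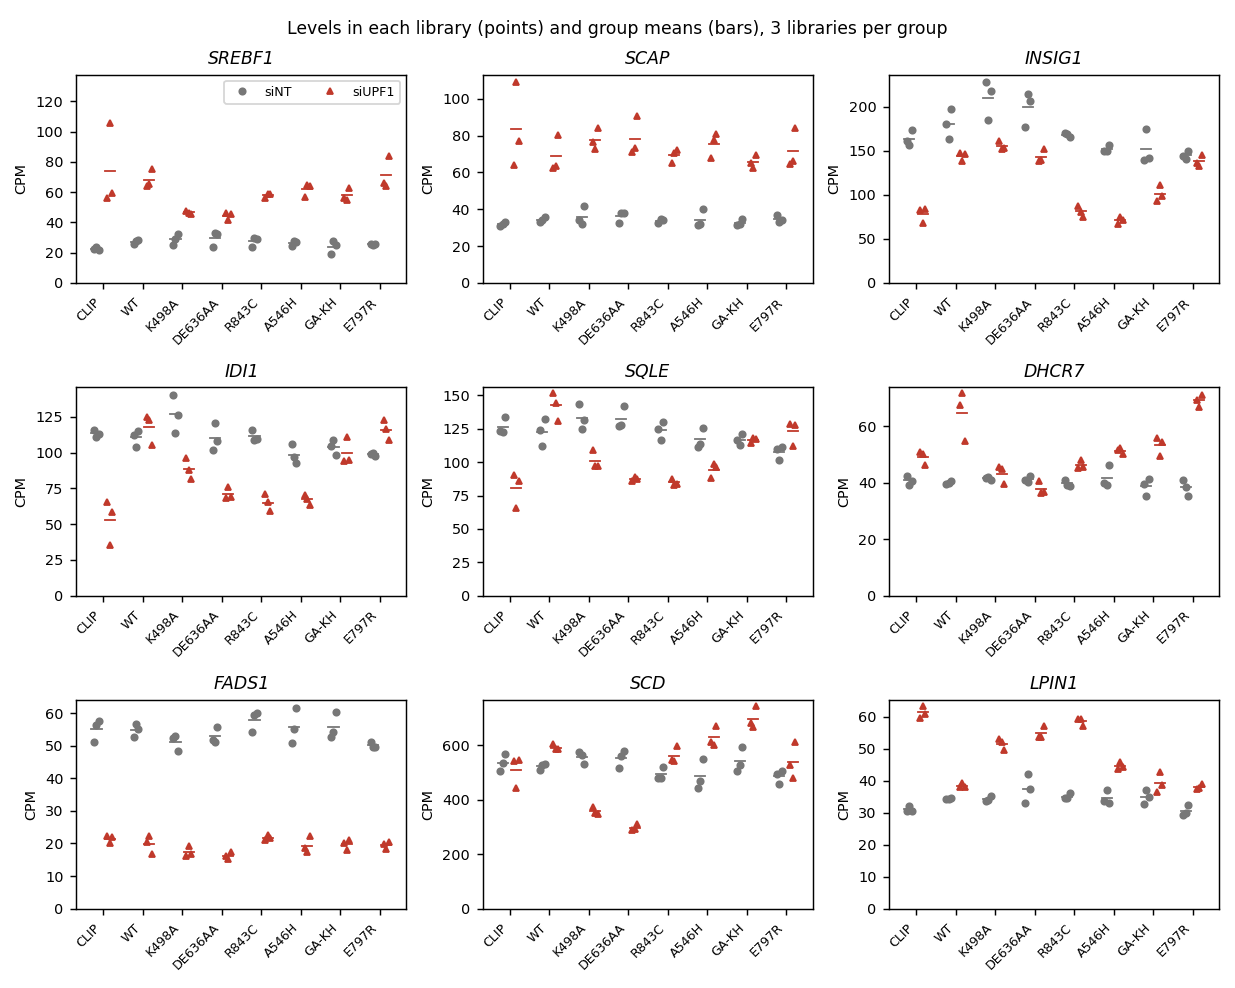
Levels in CPM of 9 members in each of the 48 libraries (grey circles, siNT, and red triangles, siUPF1, with bars for the means of 3 libraries) by line. SREBF1, SCAP and FADS1 separate completely between siRNAs in every line, whereas INSIG1, IDI1, SQLE, DHCR7, SCD and LPIN1 do so in some lines only.

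Of the 7 members in the mevalonate steps, 5 were called lower and 1 higher in the mean response, where 34.1% of all genes were called lower and 35.1% higher. PMVK (ENSG00000163344.5), phosphomevalonate kinase, was called lower in all 8 lines. Its siNT level was 17.1 to 27 CPM (median 20.4). With siUPF1 it was at 11.7, 18.3 and 13.7 CPM in CLIP, 12, 10.9 and 19.5 in WT, 10.6, 10.5 and 12.6 in K498A, and 9.12, 10.5 and 13.8 in DE636AA. It was at 11.7, 13.1 and 11.4 CPM in R843C, 10.2, 12.5 and 12 in A546H, 9.11, 10.9 and 10.5 in GA-KH, and 11.3, 11.2 and 15.5 in E797R. WT was the line in which the siUPF1 and siNT libraries overlapped, through 1 siUPF1 library at 19.5. The responses ran from -0.97 (SE 0.17) in K498A and A546H to -0.52 (SE 0.17) in CLIP, a difference among lines was not called, and the mean response of -0.77 (SE 0.06, adjusted p = 1.12e-14) left 58.5% of the siNT level.

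ACAT2, the cytosolic thiolase that joins acetyl-CoA units, was at 60.7 to 105 CPM with siNT (median 86.3). The siUPF1 libraries were at 56.6, 41.9 and 59.5 CPM in CLIP, 63.5, 58.3 and 54.8 in A546H, and 61.9, 56.7 and 51.4 in R843C. These 3 lines had the deepest falls, -0.84, -0.72 and -0.66 (SE 0.11 each). K498A (57.8, 64.6 and 58.6 CPM), DE636AA (60.3, 51.3 and 53.1) and GA-KH (78.6, 59.2 and 69.1) fell by 0.41, 0.38 and 0.37 on the log2 scale. WT (73.6, 79.2 and 66.4 CPM, response -0.20, adjusted p = 0.198) and E797R (84, 81.7 and 76.4, response -0.23, adjusted p = 0.126) were not called.

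IDI1, the isomerase of isopentenyl diphosphate, showed the widest spread of responses in the mevalonate steps. It was at 92.7 to 140 CPM (median 109) with siNT. After siUPF1 it was at 65.6, 35.5 and 58.6 CPM in CLIP, 70.8, 65.4 and 59.1 in R843C, 67.9, 75.6 and 69.1 in DE636AA, 70.5, 67.6 and 63.7 in A546H, and 96.2, 88 and 81.4 in K498A. In these 5 lines all siUPF1 libraries were below all siNT libraries of the line. The responses were -1.09, -0.77, -0.64, -0.55 and -0.52 (SE 0.12 each), and that of CLIP was -0.88 without siUPF1 replicate 2. WT (125, 123 and 105 CPM), GA-KH (94.1, 111 and 94.7) and E797R (123, 117 and 109) had responses of 0.09, -0.06 and 0.23 that were not called. Beside E797R siNT libraries at 98.9, 99.7 and 97.6 CPM, all 3 siUPF1 libraries of that line were higher, with an adjusted p of 0.136.

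FDPS, which makes farnesyl diphosphate, split the lines in the same way on a smaller scale. It was at 119 to 138 CPM with siNT (median 129). With siUPF1 it was at 98.3, 110 and 104 CPM in CLIP, 115, 104 and 111 in K498A, 101, 96.9 and 102 in DE636AA, 99.5, 99.7 and 96.4 in R843C, and 98.6, 110 and 104 in A546H, where it fell by 0.26 to 0.36 on the log2 scale (SE 0.06). It was at 137, 125 and 143 CPM in WT, 119, 126 and 119 in GA-KH, and 129, 142 and 141 in E797R, with responses of 0.10, -0.09 and 0.08 that were not called. FDPS has 8 named pseudogenes in the annotation, so reads may be shared between copies.

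The other mevalonate enzymes varied more. HMGCS1, the synthase that makes HMG-CoA, was called lower in 4 lines. In A546H (-0.39) its siUPF1 libraries also all lay below the line's siNT libraries, without a call. HMGCS1 ranged from -0.75 in CLIP (-0.46 without siUPF1 replicate 2) to 0.16 in E797R. MVD, which decarboxylates diphosphomevalonate, was called higher in CLIP (0.78, or 0.40 without that replicate) and in WT (0.47) and was near 0 in A546H (-0.01). MVK, mevalonate kinase, was called in CLIP alone (0.29), where the call was lost without that replicate (0.04, adjusted p = 0.824).

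From squalene onward the first enzymes fell in the same lines as IDI1 and FDPS, whereas the last, DHCR7, was called lower in no line. FDFT1, squalene synthase, was at 130 to 165 CPM with siNT (median 145). The siUPF1 libraries were at 107, 86.6 and 118 CPM in CLIP, 117, 112 and 107 in K498A, 96.2, 96.6 and 97.8 in DE636AA, 110, 115 and 104 in R843C, and 113, 117 and 123 in A546H. All of these libraries lay below every siNT library, and the responses were -0.52, -0.50, -0.53, -0.40 and -0.32 (SE 0.08 each). In WT (162, 158 and 151 CPM), GA-KH (136, 145 and 143) and E797R (152, 161 and 160) the responses were 0.17, 0.01 and 0.12 and were not called.

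SQLE, squalene epoxidase and a rate-controlling step of the sterol arm, repeated this division. Its siNT level was 102 to 143 CPM (median 124). After siUPF1 it was at 90.3, 65.8 and 85.7 CPM in CLIP, 86.1, 88.7 and 87.3 in DE636AA, 87.8, 83.2 and 83.7 in R843C, 109, 97.2 and 97.4 in K498A, and 87.9, 98.9 and 96.4 in A546H. The responses were -0.65, -0.60, -0.54, -0.40 and -0.31 (SE 0.08 each). In WT the libraries at 152, 144 and 131 CPM gave 0.21 (adjusted p = 0.0524), in GA-KH those at 114, 118 and 117 gave 0.00 (adjusted p = 0.989), and in E797R those at 129, 112 and 128 gave 0.19 (adjusted p = 0.082). With the replicate number as a block the rises in WT and E797R were called (adjusted p = 0.0242 and 0.0433).

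MSMO1, a methylsterol oxidase, was called in both directions. It was at 14.9 to 24.7 CPM with siNT (median 18.5). With siUPF1 it fell to 13.7, 6.57 and 12.9 CPM in CLIP (-0.77, or -0.52 without replicate 2), 16.3, 16.3 and 13.9 in DE636AA (-0.38), and 14.2, 13.7 and 12.7 in R843C (-0.44). In E797R it rose to 23.2, 21.6 and 20.6 CPM (0.49, SE 0.13, adjusted p = 0.00416). The libraries of WT (25.7, 24.9 and 19.6 CPM), K498A (18.3, 17.3 and 16.4), A546H (16.3, 15.2 and 15) and GA-KH (19.1, 18.2 and 16.5) gave 0.31, -0.31, -0.15 and 0.00, with no call. With the replicate number as a block K498A was called (adjusted p = 0.0441).

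DHCR7, the reductase that completes cholesterol, went the other way and was called higher in 6 lines. It was at 35.2 to 46.1 CPM with siNT (median 40.4). With siUPF1 it was at 69.4, 66.9 and 71.2 CPM in E797R, 67.6, 71.9 and 54.8 in WT, and 56, 49.5 and 54.4 in GA-KH, all above every siNT library. The responses of these 3 lines were 0.85, 0.70 and 0.46 (SE 0.08 each). CLIP (51, 50.3 and 46.4 CPM), A546H (51.7, 52.3 and 50.2) and R843C (45.1, 48.1 and 45.7) rose by 0.27, 0.30 and 0.22. K498A (45.5, 44.7 and 39.6 CPM, response 0.06) and DE636AA (40.7, 36.3 and 36.8, response -0.12) were not called. The lines in which IDI1, FDPS, FDFT1 and SQLE were not called lower were thus those with the largest DHCR7 responses.

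The remaining sterol enzymes had smaller or scattered responses. LSS, lanosterol synthase, was called higher in CLIP (0.52, or 0.24 and not called without siUPF1 replicate 2), WT (0.44) and E797R (0.37) and was lowest in K498A (-0.31). EBP, the sterol isomerase, was called higher in WT (0.35) and E797R (0.29) and lower in DE636AA (-0.25). NSDHL, a sterol dehydrogenase, was called higher in WT (0.34) and E797R (0.41), and with the replicate block also in GA-KH (0.22, adjusted p = 0.0424). TM7SF2, a sterol reductase, was called higher in WT (0.43). HSD17B7, a sterol ketoreductase, was called lower in K498A (-0.41) and DE636AA (-0.49). CYP51A1, the lanosterol demethylase, was called lower in CLIP (-0.39), where the call was lost without siUPF1 replicate 2 (-0.09). In K498A (-0.29) and DE636AA (-0.35) the siUPF1 libraries of CYP51A1 also all lay below the line's siNT libraries, without a call.

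In the fatty acid branch, FADS1 (ENSG00000149485.12) had the largest mean response of any member in absolute size. It is the desaturase that introduces a double bond into polyunsaturated fatty acids. It was at 48.5, 53.5 and 61.7 CPM at the lowest, median and highest siNT library. The siUPF1 libraries were at 22.2, 20.1 and 22.1 CPM in CLIP, 20.4, 22.2 and 16.9 in WT, 16, 19.3 and 16.7 in K498A, and 16.3, 15.1 and 17.4 in DE636AA. It was at 21.1, 22.6 and 21.6 CPM in R843C, 18.5, 17.3 and 22.4 in A546H, 20.2, 18 and 21 in GA-KH, and 20, 18.3 and 20.5 in E797R. No siUPF1 library came near a siNT library in any line. The responses ran from -1.36 (SE 0.09) in CLIP and E797R to -1.70 (SE 0.09) in DE636AA, and the mean response of -1.49 (SE 0.03, adjusted p = 3.48e-31) left 35.7%. FADS1 overlaps FADS2 on the opposite strand in the annotation, and the strand setting of the counting was not given, so reads of the pair may be mixed.

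ACLY, which makes cytosolic acetyl-CoA from citrate for both branches, fell in 7 lines. It was at 451 to 580 CPM with siNT (median 523). After siUPF1 it was at 252, 233 and 259 CPM in DE636AA and 263, 277 and 263 in K498A, the deepest falls (-0.93 and -0.86, SE 0.07). It was at 342, 376 and 360 CPM in CLIP, 341, 345 and 348 in R843C, and 355, 348 and 416 in A546H, with responses of -0.58, -0.58 and -0.50. It was at 430, 360 and 436 CPM in GA-KH (-0.36) and 455, 483 and 443 in WT (-0.24). In E797R the libraries at 466, 474 and 544 CPM gave -0.14 (adjusted p = 0.165) and overlapped siNT.

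The enzymes of palmitate synthesis rose in most lines. FASN, fatty acid synthase, was at 613 to 918 CPM with siNT (median 723). With siUPF1 it was at 862, 1905 and 936 CPM in CLIP, 1181, 1253 and 1605 in WT, 1101, 1070.1 and 1523 in E797R, 1028, 1039 and 1211 in GA-KH, and 886, 1026 and 1124 in A546H. These 5 lines were called higher, by 0.80, 0.84, 0.88, 0.66 and 0.58 (SE 0.17 each), but CLIP by 0.33 (SE 0.13, adjusted p = 0.036) without its siUPF1 replicate 2. R843C (869, 926 and 974 CPM, response 0.38, adjusted p = 0.0788), K498A (910, 880 and 931, response 0.15) and DE636AA (827, 863 and 993, response 0.12) were not called. ACACA, the acetyl-CoA carboxylase that precedes FASN, was at 179 to 214 CPM with siNT (median 196). It rose to 259, 305 and 248 CPM in CLIP, 272, 283 and 255 in WT, 252, 256 and 270 in E797R, 244, 248 and 249 in GA-KH, 237, 232 and 261 in A546H, and 227, 230 and 238 in R843C, or by 0.30 to 0.47 (SE 0.06). All of these exceeded every siNT library. In K498A (214, 210 and 197 CPM, response 0.01) and DE636AA (192, 197 and 186, response -0.09) it was not called.

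SCD (ENSG00000099194.5), the stearoyl-CoA desaturase that makes monounsaturated fatty acids, had the smallest p of all members in the test among lines (adjusted p = 3.24e-11). It was at 444 to 592 CPM with siNT (median 523). The siUPF1 libraries were at 287, 292 and 312 CPM in DE636AA and 374, 351 and 349 in K498A, below every siNT library (-0.89 and -0.64, SE 0.08 each). It was at 611, 603 and 672 CPM in A546H and 680, 666 and 742 in GA-KH, all above every siNT library (0.37 and 0.36, SE 0.08 each). CLIP (542, 445 and 545 CPM), WT (603, 585 and 587), R843C (545, 542 and 596) and E797R (527, 481 and 611) gave -0.07, 0.18, 0.19 and 0.15, with no call. Without siUPF1 replicate 2 the CLIP value was 0.01.

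AACS, which activates acetoacetate for lipid synthesis, was also called both ways, on a smaller scale. It was at 37.3 to 46.8 CPM with siNT (median 41.5). After siUPF1 it was at 32.7, 32.8 and 33 CPM in K498A and 33.4, 33.3 and 34 in DE636AA (-0.32 and -0.33, SE 0.08). It was at 49.2, 50.3 and 52 CPM in WT and 50.9, 50.3 and 53.5 in E797R (0.27 each). The other 4 lines were between -0.10 in A546H and 0.15 in GA-KH and were not called.

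LPIN1 (ENSG00000134324.7), a phosphatidate phosphatase of glycerolipid synthesis and an SREBP-responsive gene, rose in 6 lines. It was at 29.3 to 42 CPM with siNT (median 34.1). With siUPF1 it was at 59.6, 63.5 and 61 CPM in CLIP, 59.3, 59.2 and 57.3 in R843C, 52.9, 52 and 49.6 in K498A, and 53.8, 53.8 and 57.1 in DE636AA. All of these lay above every siNT library, with responses of 0.98, 0.74, 0.59 and 0.55 (SE 0.07 each). It was at 43.8, 45.9 and 44.3 CPM in A546H (0.37) and 37.4, 37.6 and 38.8 in E797R (0.31). WT (38.1, 39.3 and 37.9 CPM, response 0.16, adjusted p = 0.0682) and GA-KH (36.3, 42.7 and 38.5, response 0.17, adjusted p = 0.0528) were not called, but GA-KH was called with the replicate number as a block (adjusted p = 0.0299). ACSS2, which makes acetyl-CoA from acetate, was called lower in K498A (-0.33) and DE636AA (-0.39) and nowhere higher, and ELOVL6, the elongase of palmitate, ranged from -0.22 in CLIP (-0.04 without siUPF1 replicate 2) to 0.25 in A546H without a call.

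The branches were compared by the median response of the 17 sterol enzymes and of the 9 fatty acid genes in each line, as a description with no test. The sterol median was negative in CLIP (-0.31, 4 enzymes called higher and 9 lower), K498A (-0.31, 0 and 8), DE636AA (-0.36, 0 and 10), R843C (-0.25, 1 and 8) and A546H (-0.24, 1 and 6). It was positive in WT (0.19, 6 and 1) and E797R (0.20, 5 and 1) and 0.00 in GA-KH (1 and 2). The fatty acid median was negative in K498A (-0.32, 1 higher and 5 lower) and DE636AA (-0.33, 1 and 5) and between 0.13 in R843C (2 and 2) and 0.25 in A546H (4 and 2) in the other 6 lines. In CLIP it was 0.14, which rested on siUPF1 replicate 2 (0.37, against 0.02 and 0.03 in the other libraries), and without that library it was 0.01. Across all genes tested the median stayed between -0.02 and 0.02 in every line. All genes were called at 47.4% in CLIP, 27.2% in WT, 32.7% in K498A and 34.3% in DE636AA. In R843C, A546H, GA-KH and E797R these backgrounds were 32.5%, 32.2%, 28.3% and 29.5%. The share of sterol enzymes called was below background in GA-KH (17.6%) and near it in E797R (35.3%) and A546H (41.2%). The fatty acid share was near background in CLIP (55.6%) and R843C (44.4%).

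Apart from CLIP and GA-KH, the lines showed 3 arrangements of the medians. In K498A and DE636AA both medians were negative, and the sterol minus fatty acid difference was 0.02 (SD 0.10 over 3 siUPF1 libraries) and -0.03 (SD 0.08). In R843C and A546H the sterol median was negative and the fatty acid median positive, with differences of -0.38 (SD 0.11) and -0.49 (SD 0.03) that exceeded the spread between libraries. The fatty acid genes did not rise as a whole there. FADS1 (-1.41 and -1.52) and ACLY (-0.58 and -0.50) were called lower in R843C and A546H. In CLIP the difference was -0.45 (SD 0.34), from -0.13, -0.79 and -0.36 in its 3 siUPF1 libraries. Without replicate 2 it was -0.27, with the sterol median at -0.26 and the fatty acid median near 0. In WT and E797R both medians were positive, with differences of 0.03 (SD 0.08) and -0.00 (SD 0.11), and GA-KH lay between, at -0.17 (SD 0.03). With any 1 library left out, the differences of K498A, DE636AA, WT and E797R stayed between -0.118 and 0.0762. The plot of branch medians gives the value of each library.

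**Figure D3:**
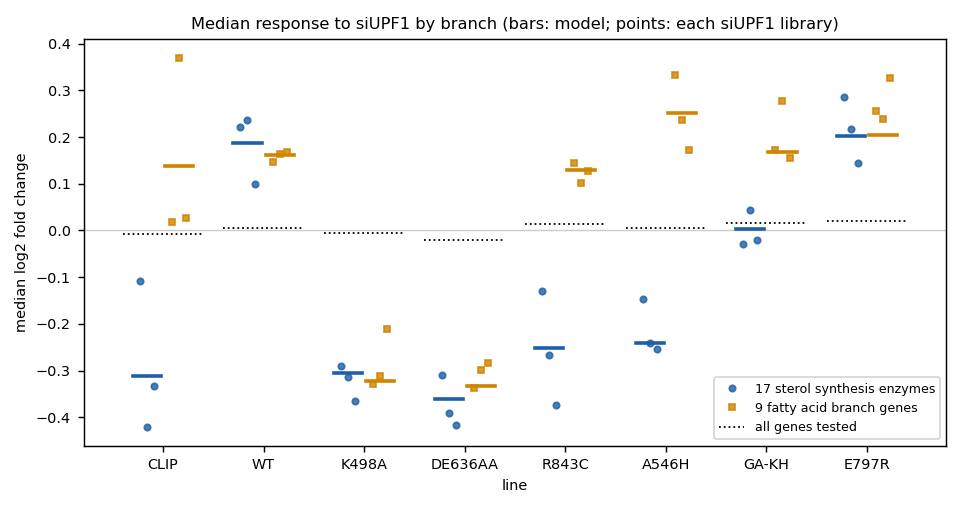
Median log2 fold change (vertical axis) of the 17 sterol synthesis enzymes (blue circles) and the 9 fatty acid branch genes (orange squares) in each siUPF1 library against the line's siNT mean, with bars for the model's value and dotted lines for all genes tested. The branches lie together below 0 in K498A and DE636AA, apart in R843C and A546H, and together above 0 in WT and E797R.

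The altered forms were next compared with wild-type CLIP-UPF1, by the difference between a line's response and that of WT. All 6 comparisons share the WT libraries, so they are not independent of each other. In K498A 12 members differed, 1 higher and 11 lower, against 3.26% of all genes tested (1.44% higher and 1.81% lower). In DE636AA 15 differed, 1 higher and 14 lower, against 4.5% (1.78% and 2.72%). In R843C 8 differed, 1 higher and 7 lower, against 1.94% (1.68% and 0.256%). In A546H 4 differed, all lower, against 0.298% (0.256% and 0.0418%), and 1 to 4 when any 1 library was left out. As shares of the 32 members these were 37.5%, 46.9%, 25% and 12.5%, each above its background. LPIN1 was the member that differed upward in K498A (0.43), DE636AA (0.39) and R843C (0.58, SE 0.09 each).

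FDPS, FDFT1 and SQLE were called lower than in WT in all 4 of these lines. For SQLE the difference was -0.61 in K498A, -0.81 in DE636AA, -0.76 in R843C and -0.53 in A546H (SE 0.12 each, adjusted p from 1.94e-05 to 0.0325). For FDFT1 it was -0.67, -0.70, -0.56 and -0.49 in the same order (SE 0.11 each), and for FDPS -0.36, -0.46, -0.44 and -0.44 (SE 0.09 each). IDI1 differed in K498A (-0.61), DE636AA (-0.73) and R843C (-0.87), as did DHCR7 (-0.64, -0.82 and -0.48). INSIG1 differed in R843C (-0.73, SE 0.13, adjusted p = 0.000369) and A546H (-0.78, SE 0.13, adjusted p = 0.0017). In K498A and DE636AA its differences of -0.12 and -0.16 were not called.

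The fatty acid genes ACLY, AACS, ACACA and SCD differed from WT in K498A and DE636AA and were not called in R843C and A546H. The difference for SCD was -0.82 (SE 0.12, adjusted p = 2.18e-05) in K498A and -1.07 (SE 0.12, adjusted p = 1.41e-07) in DE636AA. For ACLY it was -0.62 and -0.69, for AACS -0.59 and -0.60, and for ACACA -0.39 and -0.49. The differences between the altered lines themselves were not tested.

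In GA-KH and E797R no member differed from WT by edgeR or by DESeq2. By edgeR the calls among all genes were 0%, with 315 genes at an unadjusted p under 0.05 in GA-KH and 359 in E797R, or 1.65% and 1.88% of genes. At that unadjusted level 4 members stood out in GA-KH (FDPS, TM7SF2, DHCR7 and INSIG1) and 1 in E797R (INSIG1). Member differences ran from -0.42 to 0.18 in GA-KH and from -0.22 to 0.26 in E797R. A missed threshold does not show that these forms act like wild type.

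**Figure D4:**
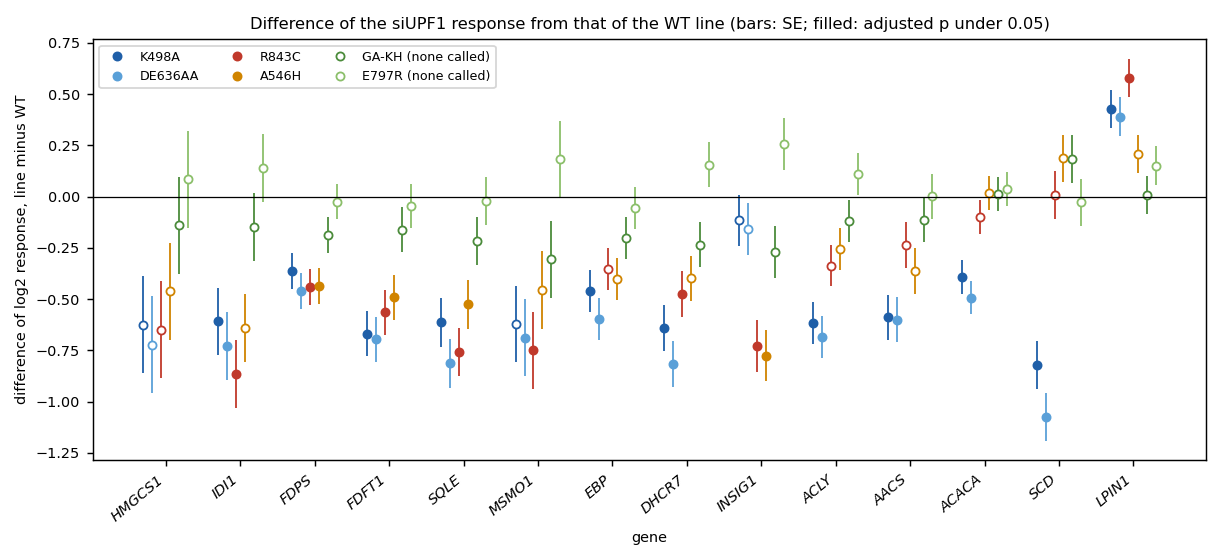
Difference of each line's log2 response from that of WT (vertical axis, with SE bars) for 14 members (horizontal axis), filled where the adjusted p was under 0.05. SQLE, FDFT1 and FDPS are below 0 and filled in K498A, DE636AA, R843C and A546H, SCD is at -0.82 in K498A and -1.07 in DE636AA, and no point of GA-KH or E797R is filled.

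Against the line with the tag alone, the response of 13 members differed in WT, 12 higher and 1 lower, beside 11.9% of all genes tested (3.77% higher and 8.08% lower). These comparisons all share the CLIP libraries. Among the 12 were 10 sterol enzymes and INSIG1, led by IDI1 (difference 1.18, SE 0.17), MSMO1 (1.07, SE 0.19) and SQLE (0.87, SE 0.12), and LPIN1 was the one lower (-0.82, SE 0.09). In E797R 13 also differed, 12 higher and 1 lower, against 13.3% (4.75% and 8.52%), with 1.32 for IDI1, 1.26 for MSMO1, 0.84 for SQLE and -0.67 for LPIN1. In GA-KH 10 differed, 9 higher and 1 lower, against 14.3% (4.85% and 9.44%), with 1.03 for IDI1 and -0.81 for LPIN1.

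In K498A 11 differed, 2 higher and 9 lower, against 13.6% (4.02% and 9.57%). In DE636AA 15 differed, 2 higher and 13 lower, against 17.9% (6.32% and 11.6%). In these lines INSIG1 was higher than in CLIP (0.63 and 0.59), and SREBF1 (-1.01 and -1.12), SCD (-0.57 and -0.82) and ACACA (-0.45 and -0.56) were lower. Without CLIP siUPF1 replicate 2 the SREBF1 differences were -0.66 and -0.77, and both were still called. In A546H 5 differed, 3 higher and 2 lower, against 5.63% (1.6% and 4.03%). In R843C none differed by edgeR or by DESeq2, where 0.753% of all genes were called (0.11% higher and 0.643% lower) and 6 members had an unadjusted p under 0.05.

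The comparisons with CLIP depended on which libraries entered. Without CLIP siUPF1 replicate 2 the members higher and lower were 12 and 1 in WT, against 10.2% of all genes called. In E797R and GA-KH they were 12 and 1 (10.9%) and 4 and 1 (10.1%). They were 1 and 6 in K498A (10.6%), 1 and 9 in DE636AA (14%), 0 and 1 in A546H (4.22%), and 0 in R843C (0.942%). The counts of GA-KH and A546H were then near their background. Without CLIP siUPF1 replicate 1 more differed, 18 in K498A, 18 in GA-KH, 11 in A546H and 1 in R843C. With the libraries of the compared lines alone, fewer were called, 5 in WT, 7 in E797R, 3 in GA-KH, 1 in K498A, 2 in DE636AA and 0 in A546H. The share of all genes called was not taken without replicate 1 or with the compared lines alone.

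With siNT, few members were called against CLIP, and the other lines were not compared with each other. Of 224 comparisons of siNT libraries with CLIP siNT, 1 was called, LPIN1 in DE636AA (0.27, SE 0.07, adjusted p = 0.035), in a comparison where 1.34% of all genes were called. The differences of members ran from -0.40 (ACAT2 in DE636AA) to 0.39 (SREBF1 in DE636AA). The LPIN1 call was lost when any 1 of the CLIP siNT libraries, or DE636AA siNT replicate 2 or 3, was left out. In DE636AA 6 members had an unadjusted p under 0.05, beside 17.6% of all genes. They were ACAT2, SREBF1, INSIG1, ACLY, ACSS2 and LPIN1. In the other lines the share of all genes called was 0.0314% for WT, 0.0366% for K498A, 0.0889% for R843C, 0.125% for A546H, 0.0627% for GA-KH and 0.0261% for E797R, and the members at an unadjusted p under 0.05 were 5 in K498A, 2 in E797R and 1 in each of the others. That 1 member was LPIN1 in WT, R843C, A546H and GA-KH, and LPIN1 was also among the 5 of K498A. These comparisons share the CLIP siNT libraries, which also enter the LPIN1 response of CLIP. By DESeq2 the calls were 1 in K498A, 3 in DE636AA and 0 in the other 5 lines.

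Other genes of the same pathways were taken from lists. In the mean response, with 69.2% of all genes called, 12 of 18 further sterol genes were higher and 3 lower. ERLIN1, an endoplasmic reticulum protein that takes part in sterol-regulated degradation, rose by 1.33 (SE 0.04), its partner ERLIN2 fell by 0.75, and the lipid carrier STARD5 rose by 0.93. Of 25 further fatty acid genes 11 were higher and 8 lower. FADS2, the desaturase beside FADS1, fell most, by 2.63 (SE 0.05) on the log2 scale, from a median of 56.3 CPM over the siNT libraries to 8.87 over the siUPF1 libraries. The elongases ELOVL2 and ELOVL4, which lengthen polyunsaturated and very long fatty acids, fell by 1.24 and 1.03. Of 5 genes tied to the liver X receptors, sterol-sensing nuclear receptors that induce SREBF1, 3 were higher and 1 lower, with the exporter ABCG1 at 1.07 and the receptor NR1H3 at -0.48.

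Responses of these further genes differed among lines in 3 of the 18 sterol genes, 8 of the 25 fatty acid genes and 1 of the 5 receptor genes, beside the background of 15.1%. FADS2 was among them (adjusted p = 1.99e-05), from -2.01 in WT to -3.14 in CLIP. The CLIP value includes siUPF1 replicate 2, the library that stood apart, and was not taken without it.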

How the data were processed

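RNA abundance was measured in 48 libraries, 16 groups of 3 (8 lines by siNT or siUPF1), which the series' design text calls biological replicates. Per the labels' protocols, 300000 cells were seeded with 40 nM siRNA, RNA was harvested after 72 h, and 500 ng was depleted of ribosomal RNA. The values deposited by the authors are expected counts for each gene, without normalisation. Per the submitters' processing notes, the tools were cutadapt (trimming), STAR (alignment to hg19), RSEM (gene quantification) and DESeq2. The sources used here give no version, annotation release or strand setting, so counts of overlapping genes and of genes with near-identical copies are uncertain. In GENCODE 29, 19 members are overlapped by a gene on the opposite strand, 4 by one on the same strand, and 5 have named pseudogenes.

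Expected counts were rounded and analysed with edgeR 4.0.16 in R 4.3.3. filterByExpr kept 19129 genes, which held at least 99.94% of each library's counts, and TMM factors ran from 0.974 to 1.04. Totals of 21.3 to 47.1 M per library set the counting error, and the p-values measure the spread between replicates. A quasi-likelihood model with 1 term per group was fitted to all 48 libraries, and p-values were adjusted by Benjamini-Hochberg over all genes tested, with a threshold of 0.05. SEs are the log2 fold change divided by the square root of F. Library branch medians used log2 CPM with a prior count of 2 against the line's mean siNT value. The script was tested on simulated data. Over the 48 replicate pairs the lowest chi-square per degree of freedom was 3.90, so no pair was treated as 1 library. The highest were 139 and 136, for the pairs with CLIP siUPF1 replicate 2. Pairs with WT siUPF1 replicate 3 had 38.0 and 39.3, beside 11.4 for the remaining pair of that group. Pairs with E797R siUPF1 replicate 3 had 27.3 and 52.8, beside 14.2.

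The members and lists were chosen with earlier results of these data known. Values in full go to the 3 members of each role group with the largest mean response and to up to 6 more with the smallest p among lines. The others are given by ranges, and the 3 largest called mean responses are named from each of the lists of other sterol and fatty acid genes. A promoter was shown where a member called in the mean response held the sterol element. The liver X receptor genes, the promoters with an E-box and the levels of SREBF2 fall outside these rules. Replicate numbers were taken to pair siNT with siUPF1 libraries of a line where all 3 pairs had correlated deviations over 0.1, which held in K498A (0.157 to 0.283) and GA-KH (0.122 to 0.275). Values are from the fit without a block in every line unless the block is named. Alternatives were RLE size factors, no filter, DESeq2 1.42.0, the compared lines' libraries alone, a replicate block, and leaving out each library. Promoters came from RefSeq (GRCh38.p14).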

Additional observations from a re-analysis of the deposited data

Results flagged for a closer look

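The responses of 20 members differed among the 8 lines in a test of that difference itself (edgeR quasi-likelihood test of the line by siRNA interaction, Benjamini-Hochberg adjustment over all genes tested), beside 15.1% of all genes. Groups of 3 libraries were not screened for single outlying libraries.

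In the fatty acid branch these were SCD (adjusted p = 3.24e-11), LPIN1 (2.87e-08), ACLY (4.18e-07), ACACA (1.05e-06), AACS (3.09e-05) and FASN (0.0475). SCD was called lower in K498A and DE636AA and higher in A546H and GA-KH, and LPIN1 was highest in CLIP (0.98) and lowest in WT (0.16).

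In the mevalonate steps they were IDI1 (3.09e-07), FDPS (2.65e-05), HMGCS1 (0.0123) and ACAT2 (0.0137), each with its lowest response in CLIP or DE636AA and its highest in WT or E797R. IDI1 ranged from -1.09 in CLIP to 0.23 in E797R.

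From squalene onward they were SQLE (5.49e-08), DHCR7 (1.05e-07), FDFT1 (4.36e-07), MSMO1 (3.37e-05), EBP (0.000183), LSS (0.00486), NSDHL (0.0326) and HSD17B7 (0.0376). DHCR7 ranged from -0.12 in DE636AA to 0.85 in E797R.

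Among the regulators they were INSIG1 (2.22e-08), from -1.10 in A546H to -0.07 in E797R, and SREBF1 (0.000945), from 0.58 in DE636AA to 1.71 in CLIP.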

How the results depend on the processing

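No call turned its direction in any of 490 pairs of a comparison and a setting. With RLE size factors no count of members moved by more than 1.5 times. With no filter on low counts, 1 member differed from CLIP in R843C, 2 differed from WT in A546H, and with siNT 1 differed in K498A and 2 in DE636AA. With DESeq2, 7 differed from WT in A546H, and with siNT 1 differed in K498A and 3 in DE636AA. With only the libraries of the line or lines compared, a fit with fewer samples, 12 members were called in the CLIP response. The members that differed from CLIP were then 5 in WT, 1 in K498A, 2 in DE636AA, 0 in A546H, 3 in GA-KH and, for E797R, 7, while 1 differed from WT in A546H, and 0 with siNT in DE636AA. The share of all genes called was not taken for the settings of this section, except without CLIP siUPF1 replicate 2.

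Same-numbered siNT and siUPF1 libraries of a line had correlated deviations of -0.00731 to 0.283 (median 0.123), over 0.1 in 15 of 24 pairs, and 20 of 24 siNT libraries correlated best with their own number. All 3 pairs were over 0.1 in K498A and GA-KH, which were taken as paired for their own responses. Their counts and SEs above are still from the fit without a block. The block added calls for MSMO1 in K498A and for NSDHL and LPIN1 in GA-KH, and removed none. In the other 6 lines, and so in the comparisons between lines, at least 1 pair was at or under 0.1. The numbers were not taken as pairing there, although the best matches are a hint of it in the data. With the replicate number as a block within each line, 7 members differed from WT in A546H and 25 among the lines, and with the replicate block across lines 1 member differed with siNT in K498A and 3 in DE636AA. No other count moved by over 1.5 times under the block. Single calls of the edgeR test did change in lines not taken as paired. Among these, SQLE was called higher in WT (adjusted p = 0.0242) and E797R (0.0433). ACAT2 was called lower in WT (0.0361) and E797R (0.0189), and ACLY lower in E797R (0.0379). In CLIP, INSIG2 (0.0152) and ELOVL6 (0.0367) were called lower and the MVK call was lost (0.064).

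Leaving out 1 library at a time gave 7 to 18 members for K498A against CLIP, 0 to 1 for R843C, 1 to 11 for A546H and 5 to 18 for GA-KH. The lowest counts for K498A and GA-KH came without CLIP siUPF1 replicate 2, and the highest of these 4 ranges without CLIP siUPF1 replicate 1. The A546H count was also 9 without CLIP siUPF1 replicate 3 and 1 to 3 without CLIP siUPF1 replicate 2, CLIP siNT replicate 2 or 3, or any 1 A546H library. Leaving out 1 library gave 1 to 4 for A546H against WT (1 without WT siNT replicate 2 or A546H siUPF1 replicate 1, and 2 without WT siNT replicate 1, WT siUPF1 replicate 1 or 2, or A546H siNT replicate 3) and 0 to 4 for DE636AA with siNT, where the LPIN1 call was lost without any 1 of the CLIP siNT libraries or DE636AA siNT replicate 2 or 3. The sterol minus fatty acid difference of medians (log2) ran from -0.110 (without K498A siNT replicate 3) to 0.0762 in K498A, -0.118 (without DE636AA siUPF1 replicate 1) to -0.0128 in DE636AA, -0.570 to -0.412 in A546H and -0.253 to -0.142 in GA-KH. Of 1664 refits of a member's mean response, 1630 kept their side of the threshold, and CYP51A1 (-0.12) was called in 28 of the others and SCD (-0.04) in 6. The cause of these moves was not tested.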

Other observations

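Among the further pathway genes, ERLIN1 and ERLIN2, which form a complex in the endoplasmic reticulum membrane, moved in opposite directions in all 8 lines. ERLIN1 was at 20.3 to 29.6 CPM over the 24 siNT libraries and 45.7 to 80.6 CPM over the 24 siUPF1 libraries, with responses from 1.13 in DE636AA to 1.52 in A546H. ERLIN2 was at 98 to 135 CPM with siNT and 61.2 to 84.1 CPM with siUPF1, with responses from -0.65 in GA-KH to -1.01 in CLIP. The siNT and siUPF1 libraries did not overlap for either gene. The fatty acid elongase ELOVL2 was at 27.7 to 39.8 CPM with siNT and 3.33 to 19.5 CPM (median 15.7) with siUPF1, where the lowest response was that of CLIP (-1.97, SE 0.20). The CLIP responses of ERLIN2 and ELOVL2 include siUPF1 replicate 2, the library that stood apart, and were not taken without it. All 8 responses of each of these 3 genes were called (edgeR quasi-likelihood test). The liver X receptor target ABCA1 was at 0 to 0.549 CPM over all 48 libraries.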
